A study of Mus musculus with 30 samples.

Results

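The nuclear genes for subunits of oxidative phosphorylation were followed in livers of 10 week old mice whose mothers had received a bisphenol or estradiol. Rows were taken whose symbol starts with Ndufa, Ndufb, Ndufc, Ndufs or Ndufv and a digit, with Uqcr, with Atp5, or with Cox and a digit of 4 to 8, together with Sdha, Sdhb, Sdhc and Sdhd, leaving out -ps symbols. Of 86 such rows, 79 had a mean of at least 1 CPM (counts scaled to the library total) over the 30 libraries and are the members described here, out of 17990 genes in the table. They comprise 39 genes of complex I, 4 of complex II, 8 of complex III, 11 of complex IV and 17 of complex V. The 7 rows below the limit were Cox4i2, Cox6a2, Cox6b2, Cox7a1, Cox8b, Ndufb4b and Ndufb4c. The highest of them was Ndufb4b at 0.882 CPM, and the lowest members were Ndufa4l2 at 1.14 CPM and Ndufs6b at 5.25 CPM. All 79 members passed the filter on low counts in each fit.

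Dams of the outbred ICR stock, 8 per group, drank water with 2,4-BPS, BPSIP, BPS or E2 at 10 ng/mL in 0.001% ethanol, an intake of 5 µg per kg body weight per day, for about 40 days through pregnancy until weaning. Control dams drank the same ethanol. Whole livers of 3 offspring per group and sex, from litters of different dams, gave 1 RNA library each, so the exposed groups are females and males of 2,4-BPS, BPSIP, BPS and E2 dams, and the controls are females and males of ethanol dams. All groups thus carry the ethanol, and the offspring received nothing after weaning. Bisphenol S (BPS) has a pair of phenol rings joined by a sulfone group, 2,4-BPS is its positional isomer with a hydroxyl group moved on a ring, and BPSIP is BPS with a hydroxyl group capped as an isopropyl ether. E2, or estradiol, is an oestrogen made by the body itself.

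Oxidative phosphorylation makes most of the ATP of liver cells at the inner mitochondrial membrane. Complex I takes electrons from NADH and complex II from succinate, complex III passes them to cytochrome c, and complex IV hands them to oxygen. Complexes I, III and IV pump protons, and complex V, the ATP synthase, lets them flow back to make ATP. Mitochondrial DNA encodes a few core subunits of complexes I, III, IV and V, which were not analysed here, and nuclear genes encode the rest. NRF1, the ETS factor GABP, oestrogen-related receptors and YY1 are known regulators of these nuclear genes.

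Promoter windows were matched by symbol for 65 of the 79 members (RefSeq, GRCm38.p6), giving 70 windows from 250 bases before to 50 bases after a start. Each motif was searched on both strands, and matches of different motifs may overlap. The NRF1 motif, searched in a form with 1 free base, was in 25.7% of the members' windows and in 4.6% of all 32851 windows. The ETS motif CCGGAAG was in 24.3% and 8.86%, the YY1 motif AAGATGGCG in 10.0% and 1.4%, and the oestrogen-related receptor motif TNAAGGTCA in 4.29% and 1.28%. The TATA motif TATAAA was in 10.0% of the members' windows and 13.6% of all windows. NRF1 matches lay in 8 of 35 windows of complex I, 2 of 3 of complex II, 1 of 5 of complex III, 1 of 9 of complex IV and 6 of 18 of complex V. A match describes the letters of a window and nothing more.

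The windows from 250 bases before to 30 bases after the start are shown for 5 members whose values stood apart from those of their neighbours. Atp5g1, Atp5g2 and Atp5g3 encode the same mature subunit c of complex V and moved apart in females, Cox6a1 did not follow most complex IV genes in BPS males, and Ndufs5 had some of the largest changes of complex I. They lie at chr11:96075602-96075881, chr15:102671018-102671297, chr2:73911297-73911576, chr5:115348929-115349208 and chr4:123718157-123718436, all on the minus strand. Capitals mark matches to the NRF1, ETS, YY1 or oestrogen-related receptor motif on either strand, of which Atp5g1 has none.
Atp5g1: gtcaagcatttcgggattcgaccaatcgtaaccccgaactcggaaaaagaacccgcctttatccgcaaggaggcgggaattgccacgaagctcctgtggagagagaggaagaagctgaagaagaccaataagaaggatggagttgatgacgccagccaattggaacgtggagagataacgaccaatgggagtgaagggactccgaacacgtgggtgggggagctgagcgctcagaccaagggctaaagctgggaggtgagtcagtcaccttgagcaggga
Atp5g2: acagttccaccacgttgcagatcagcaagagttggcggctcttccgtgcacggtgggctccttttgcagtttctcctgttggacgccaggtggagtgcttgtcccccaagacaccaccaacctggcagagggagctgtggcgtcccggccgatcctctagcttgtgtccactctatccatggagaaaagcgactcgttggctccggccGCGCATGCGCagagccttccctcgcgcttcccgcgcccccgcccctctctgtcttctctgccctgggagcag
Atp5g3: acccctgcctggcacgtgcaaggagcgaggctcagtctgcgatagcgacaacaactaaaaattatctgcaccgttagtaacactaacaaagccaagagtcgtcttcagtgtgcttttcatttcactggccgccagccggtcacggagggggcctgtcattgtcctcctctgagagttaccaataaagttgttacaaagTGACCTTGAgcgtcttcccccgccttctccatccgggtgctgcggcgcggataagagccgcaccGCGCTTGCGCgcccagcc
Cox6a1: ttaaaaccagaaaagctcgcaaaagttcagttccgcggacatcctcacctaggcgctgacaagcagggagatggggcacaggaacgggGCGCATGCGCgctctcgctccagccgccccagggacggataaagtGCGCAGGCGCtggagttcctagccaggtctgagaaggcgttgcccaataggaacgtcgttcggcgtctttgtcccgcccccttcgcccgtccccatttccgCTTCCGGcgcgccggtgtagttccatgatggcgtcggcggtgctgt
Ndufs5: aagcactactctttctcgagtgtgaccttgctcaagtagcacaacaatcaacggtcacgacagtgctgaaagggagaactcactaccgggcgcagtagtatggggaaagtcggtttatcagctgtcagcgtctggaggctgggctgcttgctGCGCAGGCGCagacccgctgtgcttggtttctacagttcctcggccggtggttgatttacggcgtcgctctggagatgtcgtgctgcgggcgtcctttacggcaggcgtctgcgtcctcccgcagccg

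Libraries held 29711711 to 37719069 counts, and the members took 1.18% to 1.7% of them. Levels are CPM scaled over the 30 libraries. The libraries labelled male control held 84.7 to 95.3 CPM of 4 Y-linked genes, against 131 to 169 CPM in the 12 exposed males, and 2220 to 2640 CPM of 8 female-specific liver transcripts, against 7.43 to 19 CPM in exposed males. Male exposures are therefore set against the mean of the other 3 exposed male groups, with the comparison to the libraries labelled male control beside it. Library differences also ran with gene length, and the members are short, with a median of 772 bases against 3288 bases over all genes. Counts of calls are therefore given with an offset for length where it moved them. Shares of all genes called are given only for the fit without that offset and are no measure for the counts with it. All 8 hepatocyte markers were detected in every group.

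Per length, the complexes lay at different levels. The median over members was 87.2 FPKM (CPM per kilobase of gene length) for complex I, 177 FPKM for complex II, 230 FPKM for complex III, 274 FPKM for complex IV and 251 FPKM for complex V. Cox4i1, a nuclear subunit of cytochrome c oxidase, was highest at 702 ± 101 FPKM, and Atp5b, the catalytic beta subunit of ATP synthase, followed at 683 ± 52.3 FPKM (SD over 30 libraries). Ndufa4, listed with complex I by its symbol but known as a subunit of complex IV, averaged 525 ± 80.3 FPKM. Ndufa4l2, its low-oxygen paralogue, was lowest at 0.992 FPKM. Reads of Ndufs6 and Ndufs6b, and of Ndufb4 and its copies, may be shared, so their single values are uncertain. By GENCODE M21, 21 of 76 annotated members overlap another gene, mostly on the opposite strand, and the strand setting of the counting is not given in the sources used here.

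**Figure D1:**
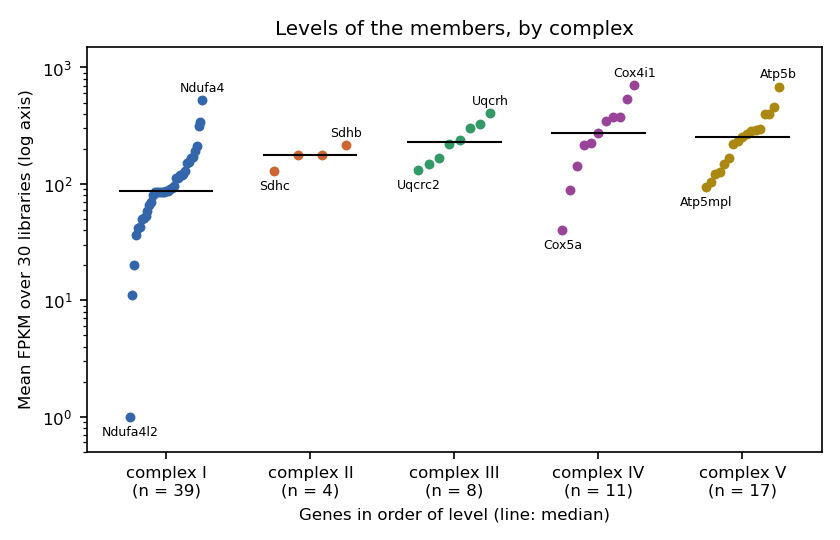
Mean FPKM of each member over 30 libraries, on a log axis, by complex, with the median as a line. Complex I has the lowest median at 87.2 FPKM, and the points run from Ndufa4l2 at 0.992 FPKM to Cox4i1 at 702 FPKM.

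In BPSIP females the members were mostly lower than in control females. Their summed level was 12850, 11690 and 12060 CPM in BPSIP females, against 13190, 13590 and 13540 CPM in control females, and the groups did not overlap. Of 79 members 31 fell, where 19.2% of all genes tested were called lower, and 1 rose, where 19.4% of all genes were called higher. The members' share that fell was 39.2%. In either direction 40.5% of the members were called, near the 38.6% of all genes. Calls are at an adjusted p under 0.05 in the edgeR quasi-likelihood test over all genes. The median log2 fold change was -0.16 over the members and -0.01 over all genes tested. The genes that fell were 13 of 39 in complex I, 0 of 4 in complex II, 5 of 8 in complex III, 5 of 11 in complex IV and 8 of 17 in complex V.

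Cox7c, a small subunit of complex IV, fell most. It had 133, 117 and 123 CPM in BPSIP females, against 151, 179 and 179 CPM in control females, a log2 fold change of -0.45 ± 0.10, adjusted p = 0.002. Ndufb5, an accessory subunit of complex I, had 72, 69.1 and 66.8 CPM in BPSIP females and 89.6, 91.3 and 94.5 CPM in control females (-0.41 ± 0.06, adjusted p = 1.38e-06). All BPSIP libraries lay below all control libraries for both genes. Such separation is common with 3 libraries per group. In this comparison 25.5% of all genes tested lay wholly below and 24.9% wholly above. Uqcrfs1, the Rieske iron-sulfur protein of complex III, had 172, 161 and 163 CPM in BPSIP females and 187, 192 and 195 CPM in control females (-0.21 ± 0.06, adjusted p = 0.00227), again without overlap. Cox4i1 also fell (-0.28 ± 0.08, adjusted p = 0.0105), though not without BPSIP replicate 2 or without BPSIP replicate 3. Of complex II, neither Sdha, the flavoprotein subunit (-0.09 ± 0.05, adjusted p = 0.159), nor Sdhb, the iron-sulfur subunit (-0.07 ± 0.06, adjusted p = 0.395), passed the test.

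The member that rose in BPSIP females was Atp5g1. It had 144, 135 and 134 CPM in BPSIP females, against 113, 119 and 114 CPM in control females (0.25 ± 0.06, adjusted p = 0.00109). Atp5g2 had 89.7, 75.3 and 89.2 CPM in BPSIP females and 94.5, 104 and 105 CPM in control females and fell (-0.26 ± 0.07, adjusted p = 0.00457), a call lost without BPSIP replicate 2. Atp5g3 had 355, 315 and 342 CPM in BPSIP females and 344, 346 and 350 CPM in control females, with overlapping libraries (-0.04 ± 0.07, adjusted p = 0.685). The 3 genes of subunit c, whose products differ in their import sequences, thus gave a higher, a lower and an uncalled value in the same livers.

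The count of 31 lower members became 20 without control replicate 2, 19 without control replicate 3, 13 without BPSIP replicate 2 and 18 without BPSIP replicate 3. With the length offset it was 36. Macrophage and Kupffer cell markers summed to 2140 to 2380 CPM in BPSIP females, against 1370 to 1430 CPM in control females, with 11 of 12 higher and none at 0. Neutrophil markers summed to 53.4 to 70.6 CPM in BPSIP females and 31.8 to 41.1 CPM in control females, with 5 of 7 tested higher. Endothelial markers summed to 389 to 405 CPM in BPSIP females, against 500 to 510 CPM in control females, with 5 of 8 tested lower and 1 higher. Of 10 T, NK and B cell markers tested 4 were higher, with sums of 25.4 to 30 CPM in BPSIP females, against 15.4 to 18.8 CPM in control females. The part of these cells in the result was not tested. In whole liver, fewer cells of a type and less RNA per cell cannot be told apart.

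In 2,4-BPS females 16 of 79 members fell, where 8.42% of all genes were called lower, and 0 rose, where 10.9% of all genes were called higher (edgeR; 0 at an unadjusted p under 0.05 and 0 by DESeq2). In either direction 20.3% of the members were called, near the 19.3% of all genes. The summed level was 11810, 12980 and 12790 CPM in 2,4-BPS females, against 13190, 13590 and 13540 CPM in control females. Cox7c had 136, 118 and 142 CPM in 2,4-BPS females and 151, 179 and 179 CPM in control females (-0.36 ± 0.10, adjusted p = 0.019). Uqcr11, a small subunit of complex III, had 104, 109 and 109 CPM in 2,4-BPS females and 129, 137 and 129 CPM in control females (-0.29 ± 0.08, adjusted p = 0.00954). In both genes all 2,4-BPS libraries lay below all control libraries. The call of Cox7c was lost in 6 of 12 alternatives (the replicate block, the length offset, and without 2,4-BPS replicate 1 or 2 or control replicate 2 or 3), and that of Uqcr11 with the length offset and without 2,4-BPS replicate 1 or control replicate 2. The genes that fell were 9 of 39 in complex I, 0 of 4 in complex II, 2 of 8 in complex III, 2 of 11 in complex IV and 3 of 17 in complex V. Of the 16, 12 also fell in BPSIP females, in comparisons that share the control livers.

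These calls rested on single livers and moved with the length offset. Without 2,4-BPS replicate 1 the count of lower members was 0, without control replicate 2 it was 7 and without control replicate 3 it was 5, whereas a fit of the 6 libraries alone called 32. With the length offset 4 were lower and 4 higher. The 14 members of up to 500 bases had a median of -0.16, and other genes of that length -0.18. Macrophage markers summed to 1940 to 2040 CPM in 2,4-BPS females, against 1370 to 1430 CPM in control females, with 12 of 12 higher and none at 0. In 2,4-BPS females the neutrophil markers summed to 21 to 26.5 CPM, against 31.8 to 41.1 CPM in control females, with 5 of 7 tested lower. Skeletal muscle markers summed to 12.2 to 51.2 CPM in 2,4-BPS females, against 3.28 to 12.7 CPM in control females, with 5 of 10 tested higher. Of 8 endothelial markers tested 4 were higher, with sums of 555 to 577 CPM in 2,4-BPS females, against 500 to 510 CPM in control females. The part of these tissues was not tested.

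In BPS females the members leaned the other way, but few passed the test. Their summed level was 14240, 14450 and 14100 CPM in BPS females, against 13190, 13590 and 13540 CPM in control females, without overlap. The test called 8 members higher, or 10.1%, where 9.32% of all genes were higher, and 1 lower, where 7.5% of all genes were lower. The share called higher was near that of all genes. The median was 0.10 over the members and -0.01 over all genes, and 69 of 79 members had a positive value. Ndufs5, an accessory subunit of complex I, had 54.5, 54.9 and 54.6 CPM in BPS females, against 42.3, 45.5 and 40.4 CPM in control females (0.37 ± 0.08, adjusted p = 0.000754). Sdhb had 259, 284 and 269 CPM in BPS females and 215, 220 and 227 CPM in control females (0.30 ± 0.06, adjusted p = 0.000293). Every BPS library exceeded every control library for these 2 genes. The others that rose were Atp5g1, Atp5g3, Cox5b, Cox6b1, Ndufs3 and Sdhd, by 0.17 to 0.25 on the log2 scale.

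Ndufs4, an accessory subunit whose loss causes a Leigh-like disease in mice, was the member that fell in BPS females. It had 63, 57.2 and 56 CPM in BPS females, against 66.1, 66.3 and 68.5 CPM in control females (-0.18 ± 0.06, adjusted p = 0.0447). In E2 females it had 54.7, 60 and 55.4 CPM (-0.24 ± 0.06, adjusted p = 0.00393). Control libraries lay above the libraries of both exposed groups, but the call in BPS females was lost without any of 5 of the 6 libraries, while that in E2 females held in every alternative run. The count of 8 higher members in BPS females became 3 without control replicate 1, 5 without control replicate 3, 3 without BPS replicate 2, 5 without BPS replicate 3, 24 in a fit of the 6 libraries alone and 19 with the length offset. Of the named genes that rose, the calls of Cox5b and Atp5g3 were each lost without any of 5 of the 6 libraries. That of Atp5g1 was lost without control replicate 1 or BPS replicate 2. Sdhd passed narrowly, at an adjusted p of 0.0444 in the edgeR test. In BPS females the neutrophil markers summed to 15.2 to 18.2 CPM, against 31.8 to 41.1 CPM in control females, with 7 of 7 tested lower. T, NK and B cell markers summed to 9.05 to 12.3 CPM in BPS females, against 15.4 to 18.8 CPM in control females, with 5 of 10 tested lower. Of 12 macrophage markers tested 4 were lower and 1 higher, with sums of 1340 to 1440 CPM in BPS females, against 1370 to 1430 CPM in control females, and their part was not tested.

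E2 females spread widely. Their summed level was 11950, 14250 and 13000 CPM, against 13190, 13590 and 13540 CPM in control females, so that E2 replicates 1 and 3 lay below and replicate 2 above all controls. Of 79 members 7 fell, or 8.86%, where 10.6% of all genes were lower, and 1 rose, where 10.4% of all genes were higher, and neither share exceeded that of all genes. The count of 7 became 22 without E2 replicate 2, 1 without E2 replicate 1, 1 without E2 replicate 3, 4 without control replicate 1, 1 without control replicate 2 and 2 without control replicate 3. The gene that rose was Cox7a2l, which helps to join complexes III and IV into supercomplexes, with 101, 118 and 104 CPM in E2 females and 95.6, 97.2 and 95.5 CPM in control females (0.16 ± 0.06, adjusted p = 0.0336), a call lost without E2 replicate 2 and without any of the 3 control libraries. In E2 females the neutrophil markers summed to 22.9 to 27.1 CPM, against 31.8 to 41.1 CPM in control females, with 6 of 7 tested lower. Macrophage markers summed to 1230 to 1290 CPM in E2 females, against 1370 to 1430 CPM in control females, with 7 of 12 tested lower and 1 higher, and their part was not tested. Over the 4 exposures, 36 members were called in no female comparison with control, while the joint test of the 4 exposures called 65 of 79, where 58.5% of all genes were called.

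**Figure D2:**
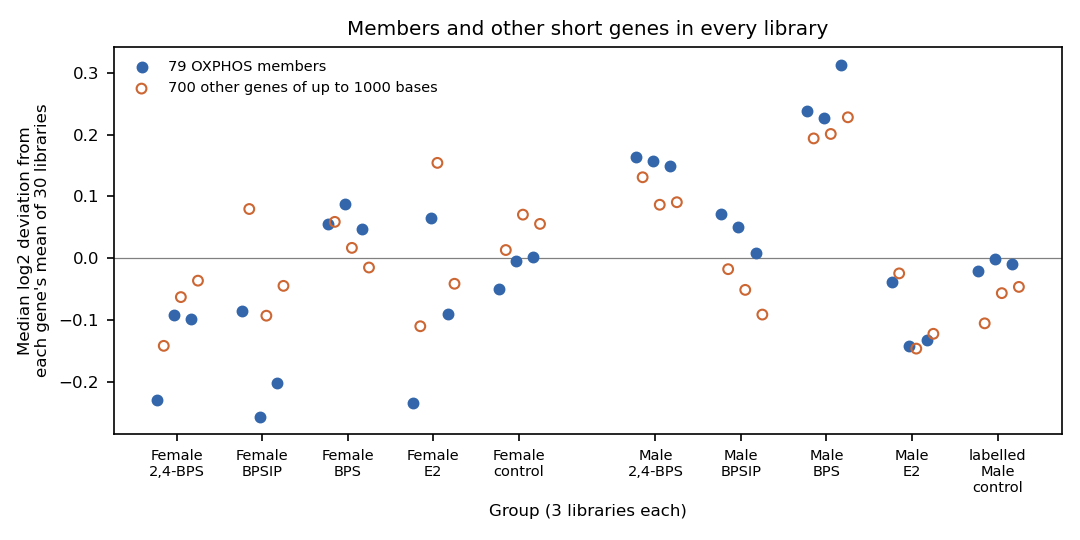
Median log2 deviation from each gene's mean over 30 libraries, for the 79 members (filled) and 700 other short genes (open), with 1 point per library and exposed groups left of the control of each sex. Members lie highest in BPS males, at 0.23 to 0.31, and lowest in BPSIP females replicate 2, at -0.26, and the 3 E2 females lie at -0.24, 0.07 and -0.09.

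The 3 bisphenols were compared with each other at the same dose and age, in 3 pairs per sex. BPSIP females had lower levels than BPS females in 61 of 79 members, where 20.1% of all genes were lower, and 0 were higher, where 19.2% of all genes were (edgeR; 0 at an unadjusted p under 0.05, and DESeq2 called 60 in either direction). With p-values adjusted over the 3 female pairs together 59 were called. They were 24 of 39 in complex I, 4 of 4 in complex II, 8 of 8 in complex III, 11 of 11 in complex IV and 14 of 17 in complex V. The count was 48 to 65 with a library left out and 62 with the length offset. The 14 members of up to 500 bases had a median of -0.33, and other genes of that length -0.06. The compound with the isopropyl ether thus went with lower levels of most members than BPS in females. Of 7 neutrophil markers tested 7 were higher, with sums of 53.4 to 70.6 CPM in BPSIP females, against 15.2 to 18.2 CPM in BPS females. In BPSIP females the T, NK and B cell markers summed to 25.4 to 30 CPM, against 9.05 to 12.3 CPM in BPS females, with 10 of 10 tested higher. Macrophage markers summed to 2140 to 2380 CPM in BPSIP females, against 1340 to 1440 CPM in BPS females, with 11 of 12 tested higher. Of 8 endothelial markers tested 5 were lower, with sums of 389 to 405 CPM in BPSIP females, against 490 to 508 CPM in BPS females, and their part was not tested.

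Ndufs5 had 43.3, 35.1 and 38.1 CPM in BPSIP females, against 54.5, 54.9 and 54.6 CPM in BPS females (-0.50 ± 0.08, adjusted p = 2.04e-06). Atp5k, a small membrane subunit of ATP synthase, had 89.3, 74.6 and 79.9 CPM in BPSIP females and 104, 121 and 120 CPM in BPS females (-0.51 ± 0.12, adjusted p = 0.00566). Sdhb had 223, 204 and 207 CPM in BPSIP females and 259, 284 and 269 CPM in BPS females (-0.37 ± 0.06, adjusted p = 4.1e-06). All BPSIP libraries lay below all BPS libraries for these 3 genes. Atp5g1, by contrast, had 144, 135 and 134 CPM in BPSIP females and 130, 138 and 133 CPM in BPS females (0.03 ± 0.06, adjusted p = 0.749).

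2,4-BPS females had lower levels than BPS females in 44 members, where 9.23% of all genes were lower, and 0 were higher, where 10.2% of all genes were (edgeR; 0 at an unadjusted p under 0.05, and DESeq2 called 50 in either direction). Adjusted over the 3 pairs the count was 53. Ndufv3, an accessory subunit of the NADH-binding part of complex I, had 63.6, 70.6 and 75.9 CPM in 2,4-BPS females, against 88, 92.3 and 91.1 CPM in BPS females (-0.37 ± 0.07, adjusted p = 0.000129). Uqcr10, a small subunit of complex III, had 114, 127 and 124 CPM in 2,4-BPS females and 161, 156 and 153 CPM in BPS females (-0.37 ± 0.07, adjusted p = 0.000274). Neither gene overlapped between the groups. The count of 44 became 22 without 2,4-BPS replicate 1, 28 without BPS replicate 2 and 30 with the length offset. In 2,4-BPS females the macrophage markers summed to 1940 to 2040 CPM, against 1340 to 1440 CPM in BPS females, with 12 of 12 tested higher. T, NK and B cell markers summed to 15.8 to 18.8 CPM in 2,4-BPS females, against 9.05 to 12.3 CPM in BPS females, with 4 of 10 tested higher. Of 8 endothelial markers tested 4 were higher, with sums of 555 to 577 CPM in 2,4-BPS females, against 490 to 508 CPM in BPS females. The part of these cells was not tested.

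2,4-BPS and BPSIP females differed in 4 members, where 35.5% of all genes were called. Atp5g1 had 103, 114 and 106 CPM in 2,4-BPS females, against 144, 135 and 134 CPM in BPSIP females (-0.35 ± 0.06, adjusted p = 1.71e-05), without overlap, and this call held in every alternative run. Ndufa1, an X-linked subunit of complex I (0.31 ± 0.10, adjusted p = 0.0196), Ndufb5 (0.20 ± 0.06, adjusted p = 0.0113) and Cox7a2l (0.18 ± 0.06, adjusted p = 0.00895) were higher in 2,4-BPS females. The call of Ndufa1 was lost without 2,4-BPS replicate 2 or BPSIP replicate 2 or 3, and that of Ndufb5 without 2,4-BPS replicate 3 or BPSIP replicate 3. For the members not called, equal levels are not shown: the 95% interval of the log2 difference was 0.01 to 0.20 for Sdha, -0.10 to 0.22 for Cox4i1 and -0.03 to 0.16 for Atp5b. The count became 9 without 2,4-BPS replicate 1, 11 without BPSIP replicate 1, 2 without BPSIP replicate 3 and 33 with the length offset. In 2,4-BPS females the neutrophil markers summed to 21 to 26.5 CPM, against 53.4 to 70.6 CPM in BPSIP females, with 6 of 7 tested lower. Macrophage markers summed to 1940 to 2040 CPM in 2,4-BPS females, against 2140 to 2380 CPM in BPSIP females, with 8 of 12 tested lower and 1 higher. Of 8 endothelial markers tested 6 were higher, with sums of 555 to 577 CPM in 2,4-BPS females, against 389 to 405 CPM in BPSIP females, and their part was not tested.

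Among males, without the length offset, BPS livers had the highest and E2 livers the lowest levels of the members. The summed level was 15230, 15280 and 15090 CPM in 2,4-BPS males, 14850, 14430 and 13980 CPM in BPSIP males, 16060, 16050 and 16680 CPM in BPS males, 13310, 12580 and 12680 CPM in E2 males and 13600, 13770 and 13650 CPM in the libraries labelled male control. BPS males lay above and E2 males below all other male libraries. Of the 4 exposed groups, BPS males had the highest mean in 64 of 79 members and 2,4-BPS males in 14, and E2 males had the lowest in 75. The joint test among exposed males called 77 members, where 54.7% of all genes were called. With the length offset, BPSIP males had higher medians than BPS males in complexes I to IV, each against the other exposed males. These were 0.0319, 0.0936, 0.0755 and 0.0502 in BPSIP males and 0.0274, 0.0843, 0.0387 and 0.0394 in BPS males. Complex V stayed highest in BPS males, and E2 males kept the lowest median in every complex.

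Against the other exposed males, 68 members rose in BPS males, where 16.9% of all genes were higher, and 0 fell, where 18.9% of all genes were lower (edgeR; 1 at an unadjusted p under 0.05 and 1 by DESeq2). Against the libraries labelled male control 68 were higher, where 20.6% of all genes were, and 1 lower, where 22.7% of all genes were. With the length offset that comparison had 27 higher and 6 lower, and the medians of the complexes, 0.22 to 0.29 without it, were 0.0444 to 0.0681. The median against the other exposed males was 0.21 over the members and 0.00 over all genes. Ndufa8, an accessory subunit of complex I, had 114, 114 and 118 CPM in BPS males, against 75.2 to 99.5 CPM in the 9 other exposed males (0.41 ± 0.04, adjusted p = 7.83e-13). Cox6b1, a subunit of complex IV on the cytochrome c side, had 314, 325 and 335 CPM in BPS males and 221 to 291 CPM in the others (0.33 ± 0.04, adjusted p = 5.31e-12). Both genes were free of overlap. Sdhd, a membrane anchor of complex II (0.30 ± 0.03, adjusted p = 8.03e-11), and Atp5o, a stalk subunit of complex V (0.32 ± 0.04, adjusted p = 3.57e-11), also rose. In BPS males the endothelial markers summed to 344 to 359 CPM, against 374 to 482 CPM in the other exposed males, with 5 of 8 tested lower and 1 higher, and their part was not tested.

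The members that did not pass in BPS males were Atp5d, Cox6a1, Cox8a, Ndufa1, Ndufa10, Ndufa4l2, Ndufa9, Ndufs6b, Ndufs7, Ndufv1 and Sdha. Sdha had 529, 524 and 518 CPM in BPS males and 480 to 590 CPM in the other exposed males (-0.07 ± 0.03, adjusted p = 0.0756). It was the member that fell against the libraries labelled male control (-0.11 ± 0.04, adjusted p = 0.0224), a call lost without any of 4 of those 6 libraries. Cox6a1, the liver form of subunit 6A of complex IV, had 222, 225 and 227 CPM in BPS males and 183 to 250 CPM in the others (0.02 ± 0.04, adjusted p = 0.757). The libraries of both genes overlapped between the groups. Cox6a1 was lower in BPS males with the length offset, at -0.21 on the log2 scale, adjusted p = 1.86e-06.

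E2 males had lower levels than the other exposed males in 72 members, where 14.2% of all genes were lower, and 0 were higher, where 17.3% of all genes were (edgeR; 0 at an unadjusted p under 0.05 and 0 by DESeq2). The median was -0.26 over the members and 0.02 over all genes. Each contrast has the other exposed groups as its reference, so the results for BPS and E2 males are not independent. In all, 63 members were both higher in BPS males and lower in E2 males. Against the libraries labelled male control the median over the members in E2 males was -0.07. Ndufs5 had 45.5, 41 and 39.9 CPM in E2 males, against 47.4 to 62.1 CPM in the 9 other exposed males (-0.41 ± 0.05, adjusted p = 4.08e-09). Sdhb had 203, 198 and 196 CPM in E2 males and 228 to 271 CPM in the others (-0.34 ± 0.04, adjusted p = 1.84e-12). Cox4i1 had 515, 493 and 496 CPM in E2 males and 566 to 668 CPM in the others (-0.33 ± 0.04, adjusted p = 7.27e-12). E2 libraries lay below all other exposed males in these 3 genes.

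Among core subunits, Ndufv1, which binds NADH in complex I, had 138, 139 and 137 CPM in E2 males and 153 to 170 CPM in the other exposed males (-0.20 ± 0.04, adjusted p = 2.43e-05). Uqcrc1, a core protein of complex III, had 263, 262 and 261 CPM in E2 males and 294 to 331 CPM in the others (-0.27 ± 0.04, adjusted p = 3.69e-09). Atp5b had 1180, 1170 and 1180 CPM in E2 males and 1310 to 1470 CPM in the others (-0.24 ± 0.03, adjusted p = 2.05e-09). No E2 library reached the others in these genes. The members that did not pass were Atp5g2, Atp5mpl, Cox7a2l, Ndufa12, Ndufa4l2, Ndufs4 and Ndufs6b. Against the libraries labelled male control 24 members were lower, where 16.4% of all genes were, and 1 higher, Uqcr10, where 17.2% of all genes were. Together 25 were called, where 33.6% of all genes were, and the 24 lower ones became 15 without E2 replicate 3. The call of Uqcr10 was lost by DESeq2 and without E2 replicate 1 or 3 or control replicate 1 or 3. Macrophage markers summed to 881 to 944 CPM in E2 males, against 711 to 825 CPM in the other exposed males, with 6 of 12 tested higher and 1 lower. Neutrophil markers summed to 33.1 to 39.9 CPM in E2 males and to at most 17.4 CPM in the other exposed males, with 6 of 6 tested higher, and their part was not tested.

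2,4-BPS males had higher levels than the other exposed males in 31 members, where 13.5% of all genes were higher, and 0 were lower, where 12.3% of all genes were (edgeR; 1 at an unadjusted p under 0.05 and 0 by DESeq2). In either direction 25.8% of all genes were called. The reference is a mean that includes the low E2 males. Against BPS males alone 29 members were lower and 2 higher, where 12.3% and 15.2% of all genes were. The 31 higher members were 19 of 39 in complex I, 2 of 4 in complex II, 4 of 8 in complex III, 2 of 11 in complex IV and 4 of 17 in complex V. Ndufa13, an accessory subunit of complex I that is also known in human cells as the cell death factor GRIM-19, had 132, 137 and 124 CPM in 2,4-BPS males, against 97.3 to 129 CPM in the others (0.26 ± 0.04, adjusted p = 2.92e-07), with overlapping ranges. Against the libraries labelled male control 52 were higher, where 18.9% of all genes were, and 0 were lower, where 19.4% of all genes were (edgeR; 0 at an unadjusted p under 0.05 and 0 by DESeq2). Ndufs5 had 61.3, 56.3 and 61.4 CPM in 2,4-BPS males and 38.1, 40.8 and 36.3 CPM in the libraries labelled male control (0.64 ± 0.07, adjusted p = 7.6e-13), without overlap. With the length offset that comparison had 16 higher and 6 lower, and the medians of the complexes, 0.13 to 0.22 without it, were 0.0221 to 0.0549. Of 10 skeletal muscle markers tested 6 were higher, with sums of 21.5 to 48 CPM in 2,4-BPS males, against 4.38 to 19.8 CPM in the other exposed males. In 2,4-BPS males the macrophage markers summed to 711 to 736 CPM, against 768 to 944 CPM in the other exposed males, with 6 of 12 tested lower and 1 higher. Against the libraries labelled male control 7 of 10 muscle markers were higher. The part of these tissues was not tested.

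BPSIP males had 16 members lower than the other exposed males, or 20.3%, where 15.4% of all genes were lower, and 2 higher, where 15.9% of all genes were higher. The higher genes were Ndufs7, a core iron-sulfur subunit of complex I, and Sdha. Ndufs7 had 81.3, 69.4 and 64.7 CPM in BPSIP males, against 48.9 to 69.9 CPM in the others (0.22 ± 0.06, adjusted p = 0.00163). Sdha had 569, 554 and 566 CPM in BPSIP males and 480 to 590 CPM in the others (0.10 ± 0.03, adjusted p = 0.0147). Both ranges overlapped, and the calls were lost without BPSIP replicate 1, that of Sdha also without BPSIP replicate 3. The count of 16 became 9 without BPSIP replicate 2 and 8 without BPSIP replicate 3, and the count of 2 became 0 without BPSIP replicate 1. With the length offset 3 were lower and 17 higher, so that the direction turned. The medians of complexes I, III, IV and V, -0.06 to -0.04 without it, were then 0.0319, 0.0755, 0.0502 and 0.0268. Against the libraries labelled male control 16 were higher, where 17.4% of all genes were, and 2 lower, Ndufa13 and Ndufs8, where 17.4% of all genes were. Both lower calls were lost without BPSIP replicate 3, and that of Ndufs8 also without control replicate 1. Endothelial markers summed to 468 to 482 CPM in BPSIP males, against 344 to 409 CPM in the other exposed males, with 8 of 8 tested higher. Of 10 skeletal muscle markers tested 6 were lower, with sums of 7.6 to 12 CPM in BPSIP males, against 4.38 to 48 CPM in the other exposed males. In BPSIP males the neutrophil markers summed to 3.26 to 6.24 CPM, against 8.48 to 39.9 CPM in the other exposed males, with 4 of 6 tested lower. A neutrophil marker was at 0 in BPSIP males and in 2,4-BPS males, and the part of these cells was not tested.

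**Figure D3:**
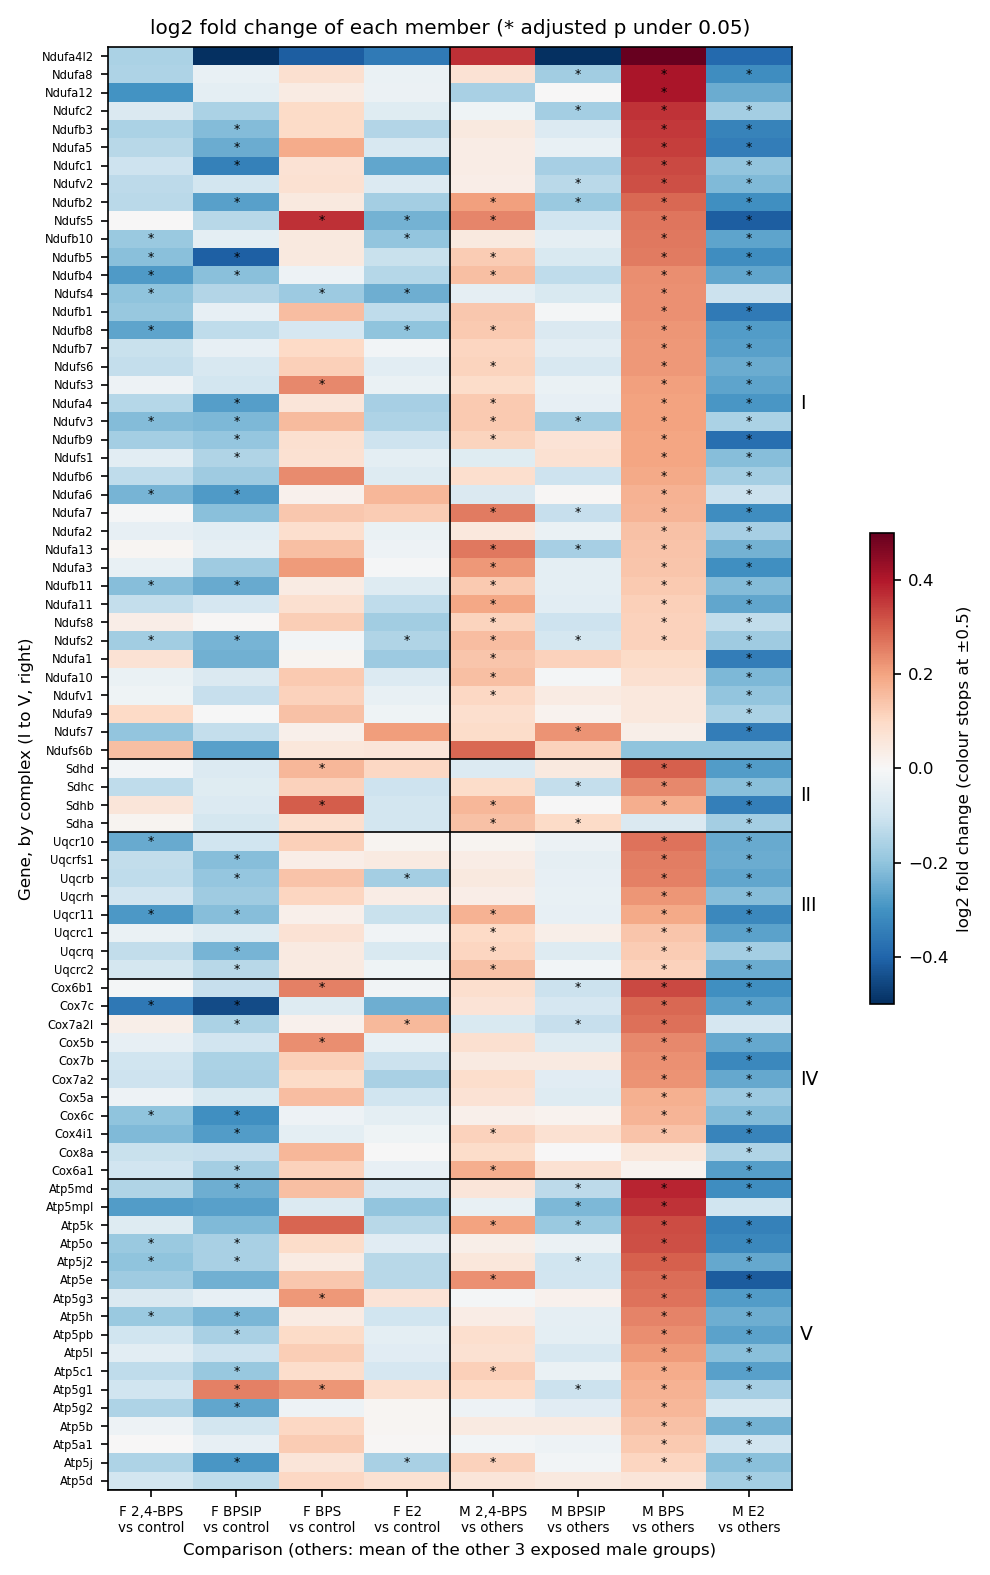
Log2 fold change of each of the 79 members (rows, by complex) in 8 comparisons (columns), red for higher and blue for lower, with the colour ending at 0.5 and a star at an adjusted p under 0.05. Against the other exposed males, BPS males have 68 starred members that are higher and E2 males 72 that are lower, and BPSIP females have 31 that are lower than in control females.

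The counts in males moved with the length offset, for which the shares of all genes called are not given. With it, 24 members were higher and 5 lower in BPS males than in the other exposed males, 12 higher and 4 lower in 2,4-BPS males, 17 higher and 3 lower in BPSIP males, and 1 higher and 38 lower in E2 males. The 14 members of up to 500 bases had a median of 0.25 in BPS males and -0.31 in E2 males, and other genes of that length 0.29 in BPS males and -0.16 in E2 males. In the next longer class, with 32 members, the medians in BPS males were 0.22 for members and 0.19 for other genes, and in E2 males -0.26 and -0.16. The members' median in BPS males was thus below that of other genes in the shortest class and above it in the next, and in E2 males it was below in both, and these differences were not tested. Ribosomal protein genes moved too. Of 82 cytosolic ribosomal protein genes 73 rose in BPS males and 64 fell in E2 males, and of 78 mitochondrial ribosomal protein genes 48 rose and 43 fell. Without the offset 16.9% of all genes rose in BPS males and 14.2% fell in E2 males. The ribosomal sets were chosen after the data had been seen, and the part of gene length in their values was not tested. 

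Between the bisphenols in males, BPSIP livers had lower levels than BPS livers in 56 members, where 16.8% of all genes were lower, and a higher level in 1, Sdha (0.13 ± 0.04, adjusted p = 0.00812), where 18.6% of all genes were higher. Ndufa8 had 83.6, 87.4 and 80.2 CPM in BPSIP males, against 114, 114 and 118 CPM in BPS males (-0.44 ± 0.05, adjusted p = 1.76e-10), without overlap. 2,4-BPS males had 29 members lower than BPS males, where 12.3% of all genes were lower, and 2 higher, Sdha (0.16 ± 0.04, adjusted p = 0.000821) and Cox6a1 (0.12 ± 0.04, adjusted p = 0.0287), where 15.2% of all genes were higher. The call of Cox6a1 was lost without 2,4-BPS replicate 2 or 3 and without any of the 3 BPS libraries. 2,4-BPS males had 29 members higher than BPSIP males, where 15.8% of all genes were higher, and 0 lower, where 15.5% of all genes were (edgeR; 2 at an unadjusted p under 0.05, and DESeq2 called 31 in either direction). Ndufa13 differed in this pair by 0.32 ± 0.05, adjusted p = 3.3e-07. With p-values adjusted over the 3 male pairs the counts were 57 for BPSIP against BPS, 31 for 2,4-BPS against BPS and 29 for 2,4-BPS against BPSIP. With the length offset they were 21, 19 and 14. The count for 2,4-BPS against BPS became 19 without BPS replicate 3, and that for 2,4-BPS against BPSIP became 15 without BPSIP replicate 3. Endothelial markers summed to 468 to 482 CPM in BPSIP males, against 344 to 359 CPM in BPS males, with 6 of 8 tested higher. Of 10 skeletal muscle markers tested 5 were higher, with sums of 21.5 to 48 CPM in 2,4-BPS males, against 4.38 to 19.8 CPM in BPS males. In 2,4-BPS males the skeletal muscle markers summed to 21.5 to 48 CPM, against 7.6 to 12 CPM in BPSIP males, with 7 of 10 tested higher, and their part was not tested.

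Averaged over the 4 exposures, females had lower levels of the members than males, but the difference depended on the exposure. In E2 livers the sexes overlapped. The members' median log2 deviation was -0.24, 0.07 and -0.09 in E2 females and -0.04, -0.14 and -0.13 in E2 males. Over the 4 exposed groups of each sex, 64 of 79 members were lower in females, where 29.9% of all genes were lower, and 1 was higher, where 28.5% of all genes were higher. The median log2 difference, females minus males, was -0.17 over the members and 0.00 over all genes. The lower genes were 30 of 39 in complex I, 3 of 4 in complex II, 6 of 8 in complex III, 11 of 11 in complex IV and 14 of 17 in complex V. The count was 59 to 67 with a library left out and 57 with the length offset, which also called 5 higher. The 14 members of up to 500 bases had a median of -0.21, and other genes of that length 0.00. Macrophage markers summed to 1230 to 2380 CPM in exposed females, against 711 to 944 CPM in exposed males, with 12 of 12 tested higher. Of 7 neutrophil markers tested 7 were higher, with sums of 15.2 to 70.6 CPM in exposed females, against 3.26 to 39.9 CPM in exposed males. In exposed females the T, NK and B cell markers summed to 9.05 to 30 CPM, against 5.87 to 9.1 CPM in exposed males, with 10 of 10 tested higher. Endothelial markers summed to 389 to 577 CPM in exposed females, against 344 to 482 CPM in exposed males, with 7 of 8 tested higher. Of 8 stellate cell markers tested 6 were higher and 1 lower, with sums of 446 to 511 CPM in exposed females, against 384 to 459 CPM in exposed males, and their part was not tested.

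Uqcr10 differed most between the sexes. It had 114 to 170 CPM in the 12 exposed females, against 156 to 230 CPM in the 12 exposed males (-0.44 ± 0.03, adjusted p = 2.44e-16). Ndufb3, an accessory subunit of complex I, had 46.2 to 67 CPM in exposed females and 53.6 to 96.3 CPM in exposed males (-0.40 ± 0.04, adjusted p = 3.27e-13). The ranges of both genes overlapped. Ndufa4 (-0.38 ± 0.03, adjusted p = 4.29e-15) and Cox7a2, the liver form of subunit 7A of complex IV (-0.30 ± 0.03, adjusted p = 2.26e-11), were also lower in females. Ndufa7, an accessory subunit of complex I, was the member higher in females, with 72.4 to 109 CPM in exposed females and 67.5 to 97.5 CPM in exposed males (0.10 ± 0.04, adjusted p = 0.0175), a call lost without 2,4-BPS replicate 2, BPSIP replicate 1 or E2 replicate 2 of the females. The 3 X-linked members, Ndufa1, Ndufb11 and Cox7b, picked for their chromosome, were lower in females, at -0.29, -0.19 and -0.14 on the log2 scale.

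Of the comparisons whose complex medians are printed in this paragraph, those of BPS males and E2 males lay closest together without the length offset. In BPSIP females the medians against control females were -0.15 for complex I, -0.07 for complex II, -0.18 for complex III, -0.16 for complex IV and -0.16 for complex V. In 2,4-BPS females they were -0.13 for complex I, 0.00 for complex II, -0.12 for complex III, -0.10 for complex IV and -0.13 for complex V, and with the length offset -0.0101 for complex I, 0.0214 for complex II, -0.0706 for complex III, 0.0039 for complex IV and -0.0289 for complex V. Complex II, whose 4 genes have a median length of 1290 bases, lay nearest 0 in both groups without the offset. In BPS females the medians were 0.08 for complex I, 0.14 for complex II, 0.06 for complex III, 0.12 for complex IV and 0.10 for complex V, so that complex II had the highest, and in E2 females -0.07 for complex I, -0.09 for complex II, -0.02 for complex III, -0.04 for complex IV and -0.06 for complex V. In E2 females the medians of complexes III, IV and V were 0.0315, 0.0520 and 0.0085 without E2 replicate 1 and -0.0761, -0.13 and -0.13 without E2 replicate 2, so that their sign rested on single livers, and that of complex IV was 0.0136 with the length offset. In BPS males the medians against the other exposed males were 0.20 for complex I, 0.21 for complex II, 0.20 for complex III, 0.23 for complex IV and 0.23 for complex V, and in E2 males -0.26 for complex I, -0.24 for complex II, -0.25 for complex III, -0.26 for complex IV and -0.24 for complex V. With the length offset they were 0.0274 for complex I, 0.0843 for complex II, 0.0387 for complex III, 0.0394 for complex IV and 0.0518 for complex V in BPS males and -0.13 for complex I, -0.18 for complex II, -0.0973 for complex III, -0.0730 for complex IV and -0.0874 for complex V in E2 males. Between the sexes they were -0.18 for complex I, -0.09 for complex II, -0.17 for complex III, -0.23 for complex IV and -0.15 for complex V. Differences between complexes were not tested. With Ndufa4 counted in complex IV, the median of that complex went from 0.2255 to 0.2137 in BPS males against the other exposed males. In BPSIP males against the libraries labelled male control it went from 0.0802 to 0.0943. No median of complex I or IV changed its sign.

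**Figure D4:**
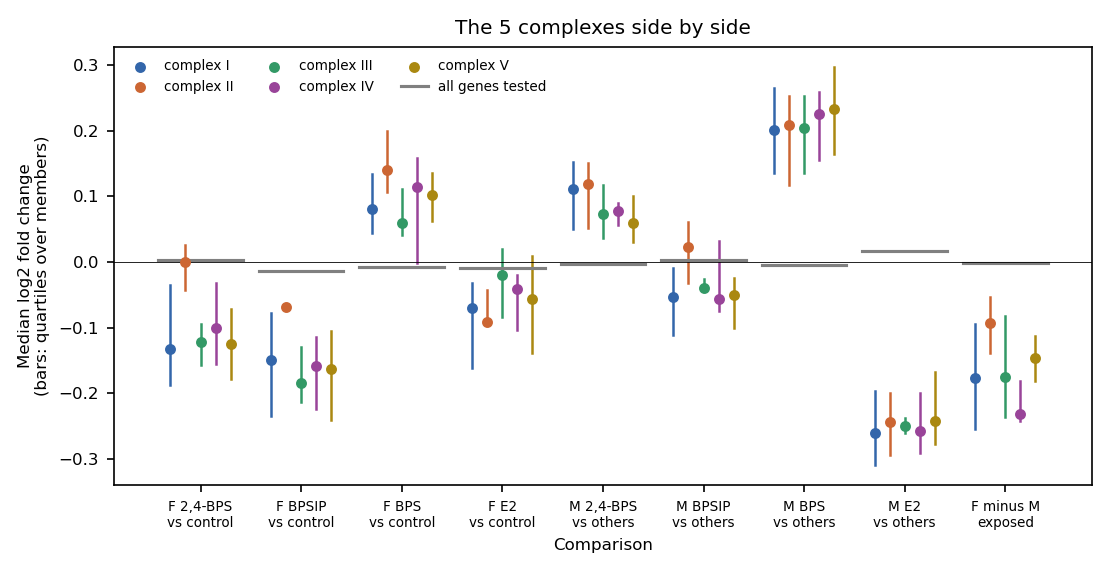
Median log2 fold change of each complex (points) with quartiles over its members (bars) and the median of all genes tested (grey line), in 4 female comparisons with control, 4 male comparisons with the other exposed males, and exposed females minus exposed males. The medians of the 5 complexes run from -0.26 to -0.24 in E2 males and from 0.20 to 0.23 in BPS males.

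**Figure D5:**
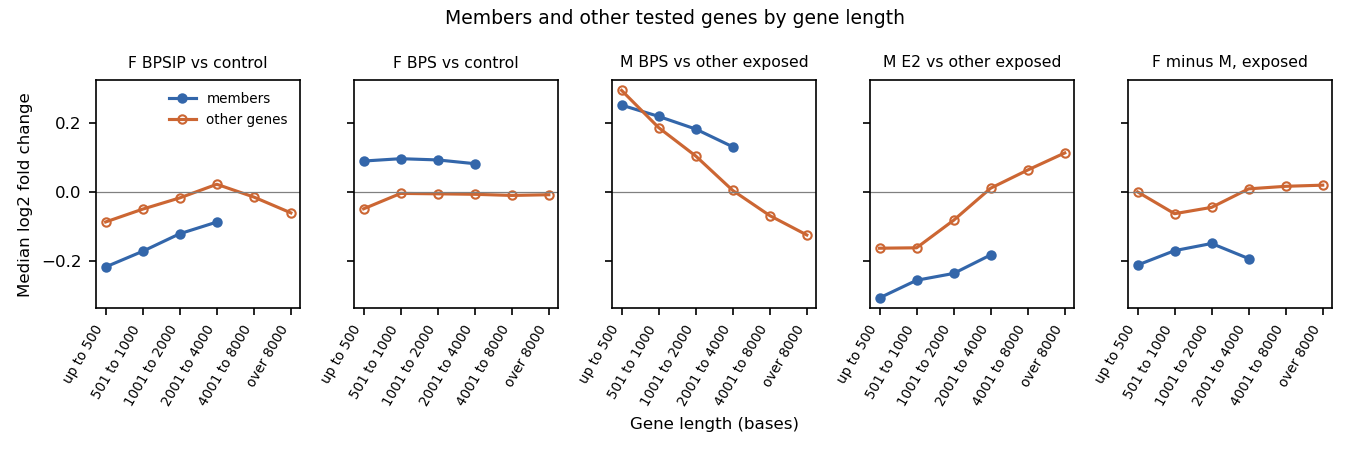
Median log2 fold change by gene length (bases) of the members (filled) and of other tested genes (open) in 5 comparisons. For genes of up to 500 bases, members and other genes lie at 0.25 and 0.29 in BPS males, at -0.22 and -0.09 in BPSIP females, and at -0.21 and 0.00 between the sexes; the shortest bin holds 14 members and the longest bin with members 7.

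Other genes of the pathway came from lists written beside the members. Cytochrome c (Cycs), the carrier between complexes III and IV, had 131, 131 and 133 CPM in BPS males, against 77.3 to 97.6 CPM in the other exposed males (0.59 ± 0.04, adjusted p = 8.32e-19). In BPSIP females, where most members were lower, it had 90, 93.3 and 87 CPM, against 76.1, 72.9 and 74.2 CPM in control females (0.27 ± 0.06, adjusted p = 0.000414), and rose. Neither comparison had overlapping libraries for Cycs. Of 18 complex I assembly factors 4 rose and 1 fell in BPSIP females, 10 rose and 1 fell in BPS males and 0 rose and 5 fell in E2 males. Of 32 assembly factors of complexes II to V 6 rose and 4 fell in BPSIP females, 14 rose and 0 fell in BPS males and 0 rose and 10 fell in E2 males. Of 18 enzymes of the tricarboxylic acid cycle list 2 rose and 5 fell in BPSIP females, 12 rose and 1 fell in BPS males and 2 rose and 13 fell in E2 males. Of all genes tested 19.4% rose and 19.2% fell in BPSIP females, 16.9% and 18.9% in BPS males and 17.3% and 14.2% in E2 males, and these counts are to be read against those shares. In BPSIP females the medians of these 3 lists were 0.12, 0.07 and 0.02, against -0.16 for the members.

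Of 19 regulators of mitochondrial biogenesis 2 rose and 7 fell in BPSIP females, 3 rose and 4 fell in BPS females, 4 rose and 5 fell in BPS males and 2 rose and 4 fell in E2 males. In BPS females 9.32% of all genes rose and 7.5% fell. The 2 regulators that rose in BPSIP females were a smaller share than that of all genes. Ppargc1a, the coactivator PGC-1 alpha, had 6.41, 5.44 and 5.35 CPM in BPSIP females, against 13.8, 12.7 and 14 CPM in control females (-1.24 ± 0.12, adjusted p = 2.87e-10). Its paralogue Ppargc1b had 3.75, 3.68 and 4.13 CPM in BPSIP females and 10.7, 11.2 and 12.5 CPM in control females (-1.58 ± 0.14, adjusted p = 8.89e-12). Both genes lay below all control libraries. In BPS males, where the members were highest without the length offset, Ppargc1a was lower, with 4.61, 6.39 and 8.06 CPM in BPS males and 6.26 to 10.8 CPM in the other exposed males (-0.45 ± 0.14, adjusted p = 0.00862), with overlap. Esrra, an oestrogen-related receptor, was 0.18 ± 0.06, adjusted p = 0.0212 in BPS males and -0.01 ± 0.08, adjusted p = 0.967 in BPSIP females, and Nrf1 was 0.03 ± 0.13, adjusted p = 0.895 in BPSIP females. Atpif1, the inhibitor of ATP synthase, was higher in exposed females than in exposed males (0.52 ± 0.05, adjusted p = 6.38e-13), against the direction of most members.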

How the data were processed

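Liver RNA-seq of 30 libraries (10 groups of 3, each from 1 liver) was used as the authors deposited it, in a table of raw read counts per gene and of FPKM. HISAT2, HTSeq, DESeq2 and R 3.2.0 are named, without roles, per the submitters' processing notes, with genome build, annotation and strand not given in the sources used here. Deposited FPKM equal counts divided by a library's total and by gene length, with a largest relative deviation of 3.46e-06, and lengths were taken from that ratio. Totals of 29711711 to 37719069 counts limit precision little beside the spread between livers, and no 2 libraries agreed within sampling noise.

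Counts were tested with edgeR 4.0.16 (R 4.3.3; TMM factors, filterByExpr, robust quasi-likelihood fit, group means) on the 15 libraries of a sex or all 30, keeping 13874 genes in females, 13474 in males and 14131 in both, with Benjamini-Hochberg adjustment over all genes and a threshold of 0.05. The scripts were tested on simulated data. Alternatives were DESeq2 1.42.0, RLE factors, no filter, a replicate block, a length offset per library (lowess, span 0.3), 6 libraries alone, each library left out, and Ndufa4 in complex IV. Intervals are 1.96 standard errors. P-values measure the spread between livers of these litters. The members, gene lists and comparisons were chosen with earlier results of these data known. Genes were picked for naming mainly by a rule: the 2 members per complex with the smallest joint p, the 2 highest and 2 lowest called members per comparison, a panel of core subunits, and members with known isoform or regulator roles. Not every gene picked is named in the text. Against the other exposed males the named members are not always the most extreme ones.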

Additional observations from a re-analysis of the deposited data

Results flagged for a closer look

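The effect of an exposure against control differed between females and males (interaction term of an edgeR fit of all 30 libraries) in 51 members for 2,4-BPS, where 34.8% of all genes were called, in 35 for BPSIP, where 36.3% were, in 31 for BPS, where 30.9% were, and in 2 for E2, where 16.9% were. Those for 2,4-BPS were all lower in females (51 of 51), and those for BPSIP and BPS were lower in females in 34 and 30 members. These values rest on the libraries labelled male control.

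Against the mean of the other 3 exposures, which uses no control library, the effect differed between the sexes in 32 members for 2,4-BPS, all lower in females, where 28% of all genes were called, in 19 for BPSIP, where 41.7% were, in 9 for BPS, where 29.3% were, and in 55 for E2, all higher in females, where 30.4% were. Without 2,4-BPS replicate 1 of the females the 32 became 15, and the 55 for E2 became 27 without E2 replicate 2 of the females and 33 without E2 replicate 2 of the males. With the length offset the counts were 11 for 2,4-BPS, 53 for BPSIP, 26 for BPS and 22 for E2. The shares of all genes called with the offset are not given, so these counts do not rank the exposures.

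Among single genes with a difference between the sexes in this contrast, Atp5g1 had a female minus male difference of the log2 fold change of -0.39 ± 0.07, adjusted p = 2.38e-06, for 2,4-BPS and of 0.30 ± 0.07, adjusted p = 0.000108, for BPSIP. Atp5g1 had 103, 114 and 106 CPM in 2,4-BPS females and 144, 135 and 134 CPM in BPSIP females, and 137, 134 and 134 CPM in 2,4-BPS males and 127, 123 and 113 CPM in BPSIP males. Cox7a2l differed by -0.30 ± 0.06, adjusted p = 0.000118, for BPS, with 99, 93.4 and 98.1 CPM in BPS females and 120, 124 and 135 CPM in BPS males. Uqcrfs1 differed by 0.42 ± 0.06, adjusted p = 3.82e-08, for E2, with 186, 215 and 193 CPM in E2 females and 187, 173 and 173 CPM in E2 males.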

How the results depend on the processing

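Among alternatives that kept all libraries, the length offset moved most counts of called members. The shares of all genes called with it are not given. Against control females it gave 4 higher and 4 lower in 2,4-BPS, 19 higher in BPS and 4 higher in E2. Against the libraries labelled male control it gave 16 higher and 6 lower in 2,4-BPS males, 27 higher and 6 lower in BPS males and 3 higher in E2 males. Against the other exposed males it gave 12 higher and 4 lower in 2,4-BPS, 17 higher and 3 lower in BPSIP, 24 higher and 5 lower in BPS, and 1 higher and 38 lower in E2. Between bisphenols it gave 33 for 2,4-BPS against BPSIP in females, and in males 19 for 2,4-BPS against BPS, 21 for BPSIP against BPS and 14 for 2,4-BPS against BPSIP. It called 5 members higher in females than in males. The effect against control differed between the sexes in 16 members for 2,4-BPS, 20 for BPS and 8 for E2, and that against the other exposures in 11 for 2,4-BPS, 53 for BPSIP, 26 for BPS and 22 for E2. The cause was not tested.

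The length offset also moved medians of log2 fold changes. In 2,4-BPS females against control they became -0.0101 for complex I, 0.0039 for complex IV and -0.0289 for complex V. Against the libraries labelled male control, those of complexes I to V became 0.0387, 0.0549, 0.0486, 0.0305 and 0.0221 in 2,4-BPS males and 0.0488, 0.0681, 0.0661, 0.0645 and 0.0444 in BPS males, and that of complex V 0.0236 in BPSIP males and -0.0575 in E2 males. Against the other exposed males, in alternatives chosen after seeing the data, those of complexes I to V became 0.0366, 0.0767, 0.0284, -0.0115 and -0.0001 in 2,4-BPS males, 0.0319, 0.0936, 0.0755, 0.0502 and 0.0268 in BPSIP males, 0.0274, 0.0843, 0.0387, 0.0394 and 0.0518 in BPS males and -0.13, -0.18, -0.0973, -0.0730 and -0.0874 in E2 males. It reversed, against the libraries labelled male control, Atp5g2 in 2,4-BPS males, at -0.12 (adjusted p = 0.0488), and in BPS males Ndufa4, at -0.0075 (adjusted p = 0.909), Cox6a1, at -0.21 (adjusted p = 3.72e-05), and Atp5g2, at -0.0687 (adjusted p = 0.286). Against the other exposed males it reversed Cox6b1 to 0.0134, Ndufa7 to 0.0018 and Uqcr10 to 0.0904 in BPSIP males, Atp5g2 to -0.0384, Cox4i1 to -0.0404, Cox6a1 to -0.21, Cox6c to -0.0646, Ndufa1 to -0.14, Ndufa4 to -0.0333, Ndufa7 to -0.0595, Ndufb1 to -0.0550, Ndufs8 to -0.0292 and Uqcr11 to -0.0631 in BPS males and Ndufs8 to 0.0005 in E2 males, where the adjusted p was 1.86e-06 to 0.995 for those 14 values.

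Fits of 6 libraries alone called 32 members lower in 2,4-BPS females, 24 higher in BPS females, and 0 higher and 4 lower in E2 females. DESeq2 called 0 higher in E2 males against the labelled controls, 1 lower in BPS males against the other exposed males, and a sex difference of the E2 effect against control in 4, where RLE factors gave 1. With no filter 0 were lower in BPS females and 2 higher in E2 females. Within a sex, replicate numbers showed no pairing of the livers: 0 of 30 same-number correlations in females and 1 of 30 in males were over 0.1. Over both sexes 7 of 135 were, the highest at 0.234. Females and males of the same exposure and number were not looked at apart, so a pairing of litter mates across the sexes was not tested. With the replicate block 0 members were lower in BPS females, and its other counts stayed within 1.5 times.

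With a library left out, counts against control females ran from 0 to 18 lower in 2,4-BPS, 13 to 38 lower in BPSIP, 3 to 9 higher and 0 to 1 lower in BPS, and 0 to 5 higher and 1 to 22 lower in E2. Against the labelled male controls they ran from 1 to 3 lower in BPSIP, 0 to 1 lower in BPS, and 0 to 1 higher and 15 to 32 lower in E2. BPSIP males against the other exposed males had 0 to 3 higher and 8 to 18 lower. Pairs had 22 to 43 for 2,4-BPS against BPS and 2 to 11 for 2,4-BPS against BPSIP in females, and 19 to 28 and 15 to 32 for the same pairs in males. Members higher in females than in males were 0 to 1. Sex differences of an effect against control were 23 to 42 for BPSIP, 13 to 30 for BPS and 1 to 7 for E2, and against the other exposures 15 to 44 for 2,4-BPS, 9 to 23 for BPSIP, 4 to 9 for BPS and 27 to 64 for E2. Medians ran from -0.16 to -0.0259 for complex IV in 2,4-BPS females and 0.0697 to 0.11 for complex I in BPS females. Against the labelled male controls they ran from 0.18 to 0.23, 0.12 to 0.15, 0.18 to 0.22 and 0.14 to 0.17 for complexes I, II, IV and V in 2,4-BPS males, 0.21 to 0.27 and 0.28 to 0.34 for complexes II and IV in BPS males, and -0.13 to -0.0334 for complex IV in E2 males, and against the other exposed males -0.0122 to 0.0482 for complex II in BPSIP males, 0.18 to 0.24 and 0.17 to 0.25 for complexes II and III in BPS males, and -0.30 to -0.24 for complex V in E2 males.

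Of 201 calls of named genes, 90 held in every alternative, 86 were lost or reversed under the length offset and 53 were lost with a library left out. This includes the named members against the other exposed males. Counting Atpif1 or Dmac2l with complex V was not run, since neither is a member. Replicate libraries differed by 5.45 to 22.4 times the sampling noise (chi-square per degree of freedom), so the spread between livers limits these results more than depth.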
